A study of Rattus norvegicus with 18 samples.

Results

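The glycolytic enzymes examined here are Hk1, Gpi, Pfkp, Aldoa, Pgk1, Pgam1, Eno1, Eno2, Ldha and Ldhb, which convert glucose to pyruvate and exchange pyruvate for lactate. All probe sets whose platform gene symbol is one of these names were taken from the deposited value table, which gave 15 probe sets for 10 of 10 genes, among 15923 probe sets and 10412 named genes in all. Of these 15, 3 were the array manufacturer's hexokinase controls. Another, for Pgk1, read between 0.5 and 19.5 on all arrays and fell below the filter on low signals. The other 11 passed it, so that each of the 10 genes was tested through its brightest probe set.

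The arrays measured RNA of the rat oculomotor nucleus, a cluster of eye-muscle motor neurons in the midbrain, and of the spinal cord. Each tissue was taken at 6, 18 and 30 months of age, with 3 arrays per age and tissue and 18 in all. The strain is labelled F344BN on part of the samples, no sample carries a treatment or a mutation in its labels, and neither the animals' sex nor the dissection is described in the sources used here. RNA on every array came from a pool of 4 animals, so p-values measure the spread between pools and not between animals.

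Glycolysis splits one glucose into pyruvate in the cytosol and yields ATP without oxygen. Hexokinase traps glucose in the cell, phosphofructokinase sets the pace of the pathway, and lactate dehydrogenase at its end regenerates the NAD that the earlier steps consume. Lactate dehydrogenase is a tetramer of the subunits encoded by Ldha and Ldhb. The Ldha subunit prevails in tissues that make lactate and the Ldhb subunit in tissues that oxidise it. In the brain, astrocytes are known for glycolysis and lactate release, while neurons take up glucose and lactate and carry their own enolase, Eno2.

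Signals are Affymetrix MAS5 intensities on a linear scale, and differences are given as log2 changes of group means. Because each probe set responds on its own scale, signals were compared between arrays for 1 gene, never between genes. The tissues were compared as oculomotor nucleus over spinal cord. A probe set was called at a Benjamini-Hochberg adjusted p under 0.05 in limma, a linear model with moderated variances, over 9482 probe sets. In RNA from whole tissue, fewer cells of a type and less RNA per cell cannot be told apart.

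Markers of cell types also differed between the tissues when the 3 ages were averaged. Over all probe sets 47.2% were called in that comparison, 23.6% as higher and 23.6% as lower in the oculomotor nucleus. Chat, the acetylcholine-synthesising enzyme of cholinergic neurons, motor neurons among them, averaged 137 ± 34.8 in the oculomotor nucleus and 368 ± 48.0 in the cord (SD, n = 9 each). It passed the filter on the mean over all arrays, through the cord, where it is high. Of 15 neuron markers tested, 6 were higher and 5 lower in the oculomotor nucleus, and their summed signal ran from 62377 to 71432 there and from 61136 to 79932 in the cord. Astrocyte markers had 1 higher and 5 lower of 10, with sums of 37097 to 46376 against 42368 to 56911, and myelin markers had 0 higher and 6 lower of 9, with sums of 37319 to 47170 against 41081 to 58693. All 11 microglia markers tested were lower (sums 8623 to 14796 against 12393 to 23787), as were 5 of 6 blood and endothelial markers (6645 to 12220 against 13547 to 23514). Both choroid plexus markers tested were higher, with sums of 453 to 4144 against 371 to 511. Skeletal muscle markers were lower in 6 of 6, with sums of 4219 to 5375 against 5062 to 18247. At 30 months alone 2 of these 6 were called lower, where 21.0% of probe sets were called in either direction. Pygm is counted both here and among the glycogen genes below. Each sum runs over all matched markers, also those not tested. The matched markers numbered 12 for microglia, 7 for blood and endothelium, 4 for choroid plexus and 19 for muscle. Results are also given without the 3 cord arrays with most muscle RNA signal, called muscle-rich (replicates 1 and 2 at 6 months, replicate 2 at 18 months). For the other lists, their part in the differences of the enzymes was not tested.

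On 4 arrays (replicate 3 of the oculomotor nucleus at 30 months, and in the cord replicate 1 at 6 months and replicate 3 at both later ages) many transcripts deviated together from their groups, along a first principal component with 27.1% of the within-group variance. They are called the arrays that stand apart. They cover the negative end of the component, with scores of -12.1 to -16.6. Replicate 2 of the oculomotor nucleus at 30 months stood at the positive end with a score of 14.2, larger in size than the scores of cord 6 months replicate 1 and cord 18 months replicate 3. Results without that array are given as well.

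Between the tissues, 7 of the 10 enzymes were higher in the oculomotor nucleus when the 3 ages were averaged, and none was lower. The background was wide: of the 9482 probe sets, 47.2% were called in either direction, 23.6% as higher and 23.6% as lower. The median log2 change of the 10 enzymes was 0.25, against 0.01 over all probe sets tested. The change was largest for Ldha, at 2.01-fold, while its partner Ldhb differed by 1.03-fold and did not pass.

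**Figure D1:**
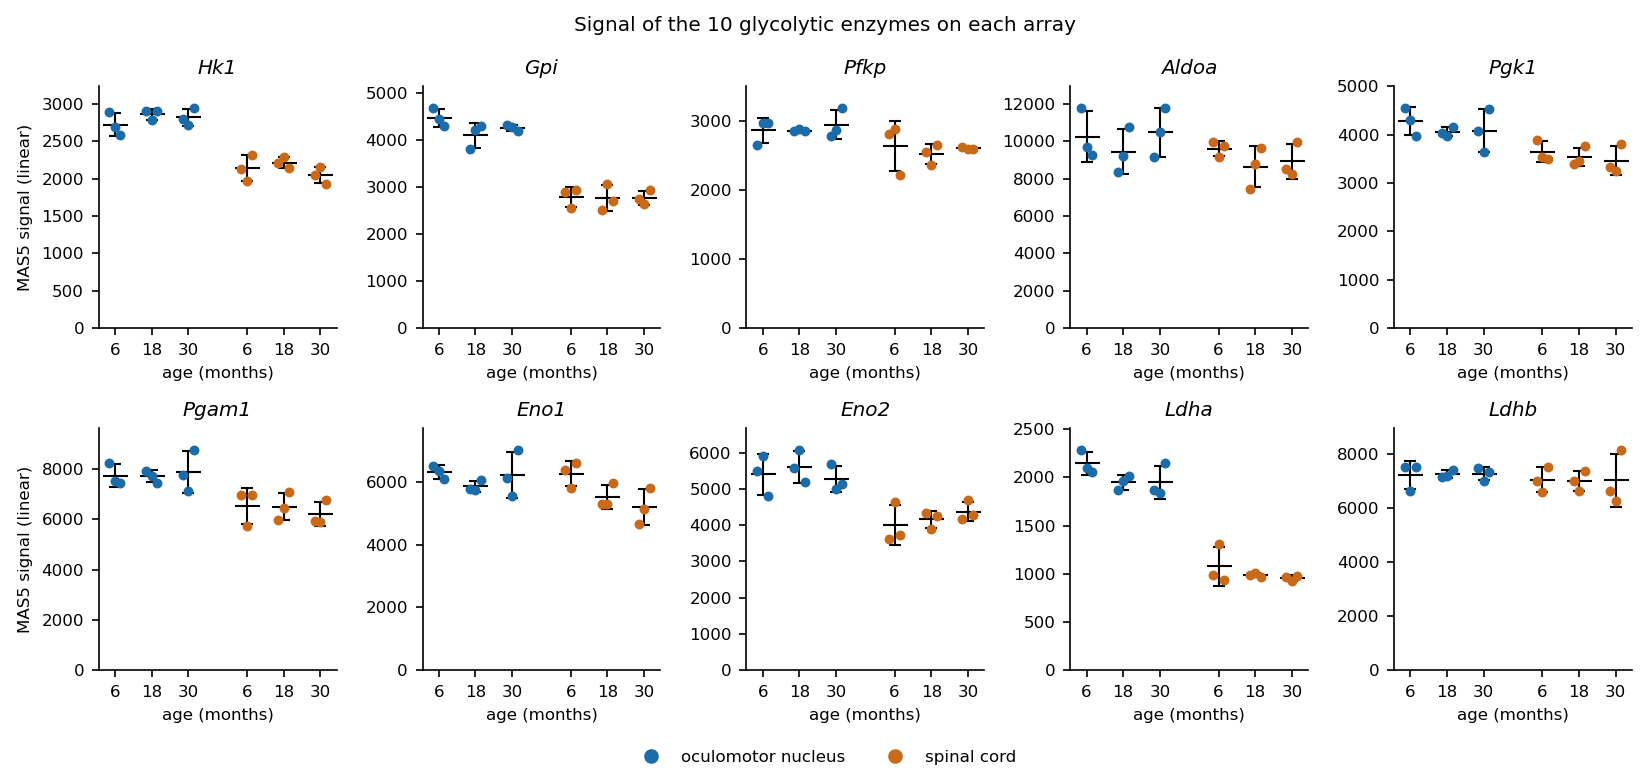
Signal of each enzyme on every array (linear MAS5 units, vertical axis from 0) by age in months, with oculomotor nucleus arrays in blue on the left and spinal cord arrays in orange on the right. Points are arrays, bars the mean and SD of 3 arrays. Ldha, Gpi, Hk1, Eno2 and Pgam1 had every oculomotor array above every cord array, while Ldhb lay between 6288 and 8166 in both tissues.

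At the entry to the pathway, Hk1, the hexokinase that phosphorylates glucose and binds mitochondria in neural tissue, had signals of 2589 to 2949 in the oculomotor nucleus (median 2799) and of 1936 to 2324 in the cord (median 2148). The ranges did not overlap. The difference was 1.31-fold (log2 0.39, SE 0.05, adjusted p = 1.35e-06). Hexokinase was also read by the manufacturer's control probe sets, which were kept out of the test. The control at the 3' end of the transcript read 628 to 864 in the oculomotor nucleus and 439 to 594 in the cord, again without overlap. The 5' control (328 to 512 against 231 to 349) and the middle one (641 to 1826 against 430 to 1072) overlapped. The ratio of the 3' to the 5' control, a measure of RNA integrity, spanned 1.57 to 1.91 in the oculomotor nucleus and 1.66 to 2.19 in the cord. Its part in the difference of Hk1 was not tested.

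Gpi, the isomerase that turns glucose 6-phosphate into fructose 6-phosphate, had the second largest difference. Oculomotor signals of Gpi were 4672, 4439 and 4280 (6 months), 3796, 4214 and 4287 (18 months), then 4321, 4260 and 4194 (30 months). Cord signals were 2885, 2549 and 2929 (6 months), 2513, 3068 and 2694 (18 months), then 2739, 2639 and 2931 (30 months). The lowest oculomotor array stood above the highest cord array at every age. Averaged over the ages the difference was 1.54-fold (log2 0.63, SE 0.05, adjusted p = 9.98e-09).

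Pfkp, the platelet-type subunit of phosphofructokinase that is abundant in brain, differed little between the tissues, at 2889 ± 147 against 2587 ± 202 (SD, n = 9 each). Its ranges overlapped, from 2652 to 3186 in the oculomotor nucleus and from 2222 to 2880 in the cord. The difference of 1.12-fold passed the test (log2 0.16, SE 0.06, adjusted p = 0.023), but not after quantile normalization (adjusted p = 0.0658) or without cord 18 months replicate 2 (adjusted p = 0.051). Aldoa, the aldolase that splits fructose 1,6-bisphosphate, read 8364 to 11790 in the oculomotor nucleus (median 9710) and 7470 to 9995 in the cord (median 9170). Its log2 change of 0.15 (SE 0.07, 95% interval -0.0078 to 0.30) did not pass (adjusted p = 0.11), although quantile normalization gave an adjusted p of 0.0167.

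In the part of the pathway that yields ATP, Pgk1, phosphoglycerate kinase, read 3643 to 4552 in the oculomotor nucleus (median 4073) and 3240 to 3895 in the cord (median 3499). The ranges overlapped, and the difference was 1.17-fold (log2 0.22, SE 0.05, adjusted p = 0.0026). A second probe set of Pgk1, whose name marks probes shared by several transcripts, gave 1.31-fold (log2 0.39, SE 0.08, adjusted p = 0.00034). Pgam1, the phosphoglycerate mutase of brain, read 7130 to 8757 in the oculomotor nucleus (median 7740) and 5714 to 7080 in the cord (median 6464). These ranges were separate, with a difference of 1.21-fold (log2 0.28, SE 0.06, adjusted p = 0.000831).

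The enolases make phosphoenolpyruvate. Eno2, the neuron-specific enolase, read 4796 to 6073 in the oculomotor nucleus (median 5490) and 3628 to 4684 in the cord (median 4257). No cord array reached the lowest oculomotor array, and the difference was 1.30-fold (log2 0.38, SE 0.06, adjusted p = 5.33e-05). Eno1, the enolase of most tissues, read 5550 to 7013 in the oculomotor nucleus (median 6078) and 4653 to 6584 in the cord (median 5808). The ranges overlapped widely. Its log2 change of 0.12 (SE 0.06, 95% interval -0.00095 to 0.24) did not pass (adjusted p = 0.0959), but did with array weights (adjusted p = 0.0203), without the 4 arrays that stand apart (0.0345), without oculomotor 30 months replicate 2 (0.0384) and without cord 30 months replicate 3 (0.0396).

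At the end of the pathway, Ldha had oculomotor signals of 2284, 2096 and 2059 (6 months), 1868, 1961 and 2013 (18 months), then 1867, 1838 and 2146 (30 months). Its cord signals were 987, 1306 and 935 (6 months), 985, 1010 and 967 (18 months), then 968, 919 and 972 (30 months). Every oculomotor array was above every cord array, with the nearest cord array, replicate 2 at 6 months, apart from the other 8. Averaged over ages Ldha was 2.01-fold higher (95% interval 1.84 to 2.20, log2 1.01, SE 0.06, adjusted p = 1.39e-10), which ranked 135 from the top among the 9482 log2 changes. In order of their means, the groups were oculomotor 6 months (2146 ± 120), 30 months (1950 ± 170.0) and 18 months (1947 ± 73.6), then cord 6 months (1076 ± 201), 18 months (988 ± 21.5) and 30 months (953 ± 29.4; SD, n = 3 each). Ldha was called between the tissues at each age, and neither later age was called against 6 months in either tissue. The step between 30 and 18 months was not among the comparisons tested.

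Ldhb read 6649 to 7553 in the oculomotor nucleus (median 7342) and 6288 to 8166 in the cord (median 7014). The highest and the lowest of the 18 values were both cord arrays at 30 months. The log2 change was 0.05 (SE 0.06, 95% interval -0.07 to 0.17, adjusted p = 0.509), so a difference beyond 1.12-fold in favour of the oculomotor nucleus lay outside the interval. The 6 group means ran from 7015 to 7284, and no neighbours in their order differed beyond the spread of arrays.

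The windows around the transcription start of these lactate dehydrogenase genes are shown because Ldha was called between the tissues and Ldhb was not. They hold 250 bases before and 50 after the start, from RefSeq on the GRCr8 build. The Ldha window is chr1:106507842-106508141 on the plus strand, and the Ldhb window chr4:177177359-177177658 on the minus strand. Capitals mark the 5 letters ACGTG read on either strand (CACGT on the printed strand). They are the form with A first of the core of the hypoxia response element that HIF-1 binds. The form with G first, GCGTG, was neither searched nor marked, and it can be read in both printed windows. ACGTG and CACGT overlap in CACGTG, which is also the E-box bound by Myc.
Ldha: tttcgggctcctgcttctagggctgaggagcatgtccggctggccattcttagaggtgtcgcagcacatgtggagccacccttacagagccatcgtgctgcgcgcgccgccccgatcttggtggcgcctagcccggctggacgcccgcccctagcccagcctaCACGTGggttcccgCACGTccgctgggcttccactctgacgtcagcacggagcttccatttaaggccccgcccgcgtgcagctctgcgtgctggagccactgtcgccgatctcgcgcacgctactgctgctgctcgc
Ldhb: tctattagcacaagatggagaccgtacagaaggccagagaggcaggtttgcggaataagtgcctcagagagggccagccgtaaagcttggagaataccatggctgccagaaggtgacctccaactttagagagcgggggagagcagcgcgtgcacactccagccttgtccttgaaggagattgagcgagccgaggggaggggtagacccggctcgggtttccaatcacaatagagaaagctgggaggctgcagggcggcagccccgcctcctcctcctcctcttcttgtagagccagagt
In the Ldha window there were 3 matches, beginning at positions -87, -86 and -73 from the start. The pair at -87 and -86 is the same CACGTG read on both strands, and such pairs were counted the same way in all windows. The Ldhb window had 0. The motif was present in 19.3% of the 33469 windows of this length in the rat table, 1.69% had 3 or more matches and 6.42% held CACGTG. Windows were given for 9 of the 10 enzymes (13 windows), and 7 of these 13 windows (53.8%) held the motif, 1 each of Ldha, Aldoa, Eno1, Eno2, Gpi, Hk1 and Pgam1. Aldoa had 3 windows and Eno1 and Hk1 had 2, of which the others held no match. Averaged over ages, Aldoa and Eno1 were not called between the tissues, while Pfkp, which was called, had a window without a match. A match is a description of the letters and was not tested as a binding site.

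**Figure D2:**
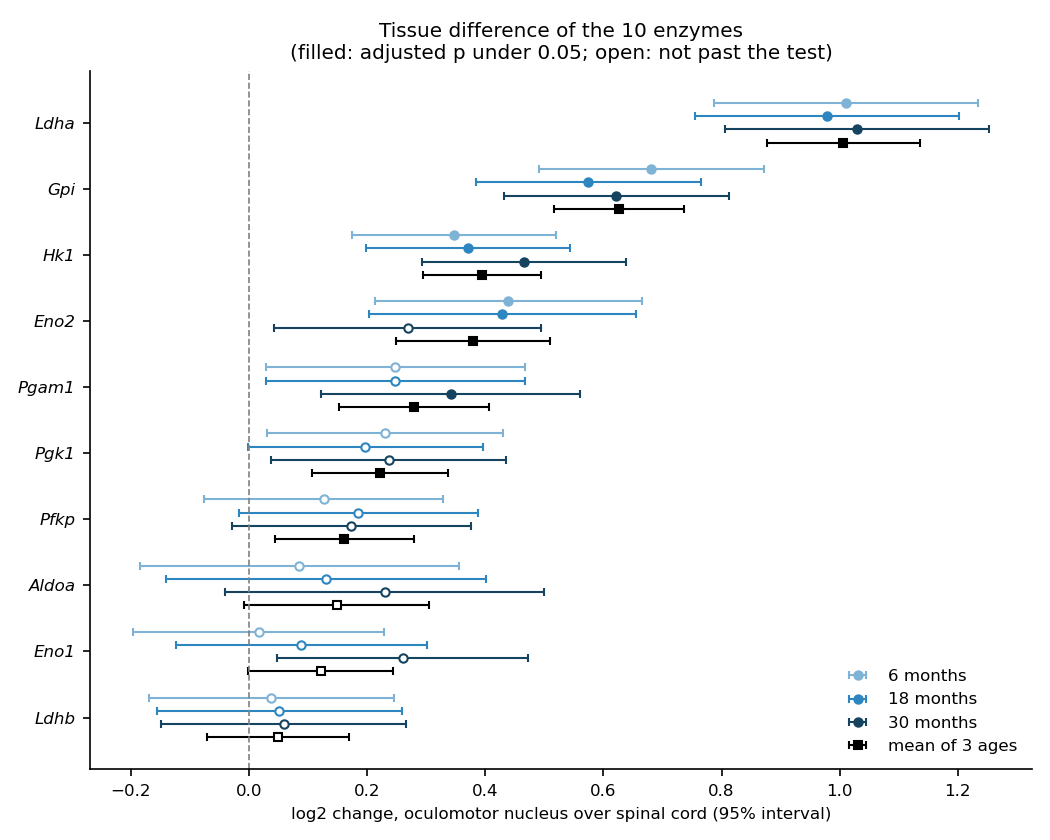
Log2 change of each enzyme, oculomotor nucleus over spinal cord, at 6, 18 and 30 months (circles, light to dark) and averaged over the ages (black squares), with 95% intervals from limma. Filled symbols had an adjusted p under 0.05. Ldha, Gpi and Hk1 were filled at every age, while the interval of Ldhb included 0 throughout.

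At single ages the same direction was seen with fewer calls. The oculomotor nucleus had 4 enzymes higher at 6 months (Ldha, Gpi, Eno2 and Hk1), where 26.1% of probe sets were called and 12.7% were higher. At 18 months the called enzymes were again Ldha, Gpi, Eno2 and Hk1, against 26.2% of probe sets called and 12.3% higher. Ldha, Gpi, Hk1 and Pgam1 were called at 30 months, against 21.0% called and 9.70% higher. Eno2 had a log2 change of 0.44 at 6 months, 0.43 at 18 months and 0.27 at 30 months, the last not past the test (adjusted p = 0.0849). Ldha kept log2 changes of 1.01, 0.98 and 1.03 over these ages. Pgk1 was not called at a single age through its brightest probe set (adjusted p = 0.0833, 0.141 and 0.0858). Its second probe set was called higher at 6 months (log2 0.54, adjusted p = 0.00593) and 18 months (log2 0.39, adjusted p = 0.0374). At 30 months that probe set did not pass (log2 0.25, adjusted p = 0.199).

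Without overlap between the 3 oculomotor and 3 cord arrays stood 6 enzymes at 6 months, 7 at 18 months and 6 at 30 months, all higher in the oculomotor nucleus, against 20.2%, 22.7% and 16.5% of probe sets. For all 9 against all 9 arrays there were 5 (Ldha, Gpi, Hk1, Eno2 and Pgam1), against 6.90%. The enzymes also varied less within groups than most probe sets. Their within-group SD ran from 0.07 (Hk1) to 0.16 (Aldoa) on the log2 scale, against a median of 0.18 over the 9482, and their mean signals lay at the 83.5th percentile (Ldha) or above.

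The ratio of isoenzymes within an array does not depend on a scaling factor applied to the whole array. Its absolute value depends on the probes, so only its difference between groups was read, as a description without a test. The log2 ratio of Ldhb to Ldha ran from 1.67 to 2.00 in the oculomotor nucleus and from 2.34 to 3.07 in the cord, and the groups were separate. Its mean was lower in the oculomotor nucleus by 1.94-fold (log2 difference -0.96, pooled SD within groups 0.18). The log2 ratio of Eno2 to Eno1 overlapped between the tissues, at -0.45 to 0.08 in the oculomotor nucleus and -0.82 to -0.13 in the cord (difference 0.26, SD 0.18). The ratio of Aldoc, the aldolase known from astrocytes, to Aldoa overlapped too (-0.34 to 0.05 against -0.11 to 0.45, difference -0.25, SD 0.15).

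**Figure D3:**
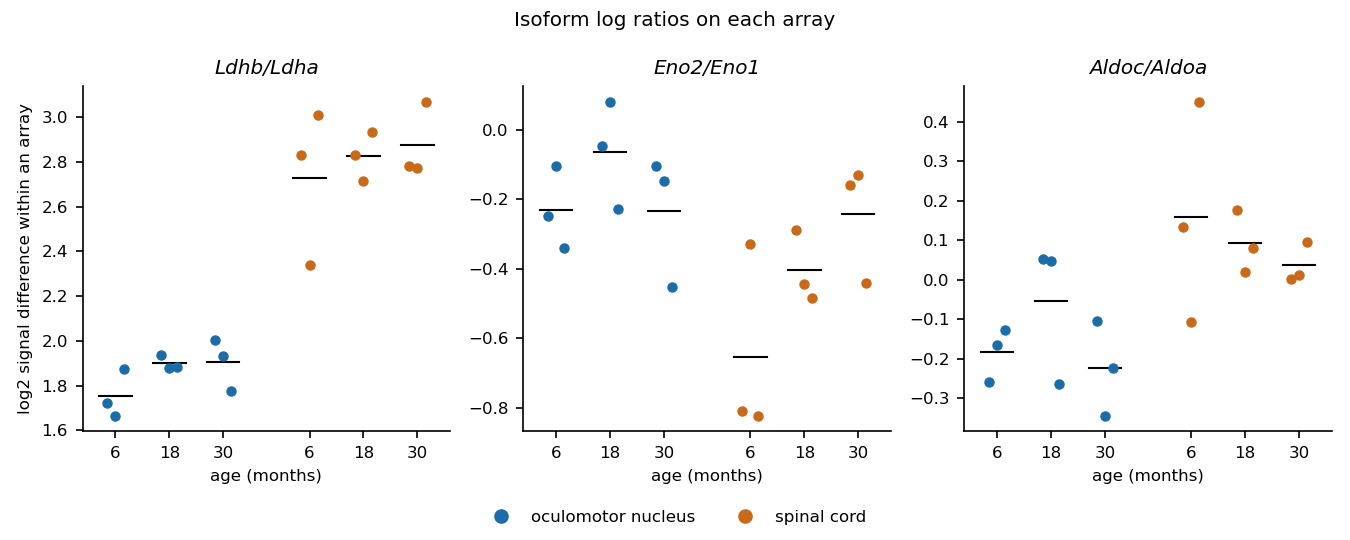
Log2 ratio of Ldhb to Ldha, Eno2 to Eno1 and Aldoc to Aldoa on each array (vertical axes, not starting at 0) by age in months, oculomotor nucleus in blue on the left and spinal cord in orange on the right. Horizontal lines are means of 3 arrays. The Ldhb to Ldha ratio was at most 2.00 in the oculomotor nucleus and at least 2.34 in the cord.

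With age, 0 of the 10 enzymes were called in any comparison with 6 months. In the oculomotor nucleus limma called 0% of the probe sets at 18 months and 0.211% at 30 months, and in the cord 0.728% at 18 months and 0.221% at 30 months. At an unadjusted p under 0.05 stood 0, 0, 0 and 1 of the enzymes in these 4 comparisons, against 321, 770, 980 and 1013 of the 9482 probe sets. The enzymes' adjusted p-values were 1 for 18 months and 0.771 to 0.99 for 30 months in the oculomotor nucleus, and 0.561 to 0.997 and 0.326 to 0.993 in the cord. For 30 over 6 months averaged over both tissues 0 were called, against 0.749% of probe sets. In the test of whether that change differed between the tissues, 0 enzymes and 0% of probe sets were called, with 0 enzymes and 519 probe sets at an unadjusted p under 0.05. The 95% intervals of the 10 enzymes at 30 over 6 months reached from -0.36 (Ldha) to 0.30 (Aldoa) in the oculomotor nucleus and from -0.48 (Eno1) to 0.36 (Eno2) in the cord.

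Read through the brightest probe sets, Eno1 in the cord was the enzyme with an unadjusted p under 0.05. Its cord signals were 6360, 5813 and 6584 (6 months), 5288, 5297 and 5955 (18 months), then 4653, 5124 and 5808 (30 months). The 30-month arrays were all below those of 6 months, though the nearest arrays of these ages read 5808 (30 months) and 5813 (6 months). The log2 change was -0.27 (SE 0.10, unadjusted p = 0.015, adjusted p = 0.326). It was the single enzyme without overlap in this comparison, in which 13.1% of probe sets did not overlap and 6.38% were lower. In the oculomotor nucleus the log2 change of Eno1 was -0.03 at 30 months (SE 0.10, adjusted p = 0.976).

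Ldha had negative log2 changes at both later ages and in both tissues, and none passed. In the oculomotor nucleus they were -0.14 at 18 months and -0.14 at 30 months (SE 0.11 each). At 18 months Ldha and Eno1 did not overlap with 6 months in the oculomotor nucleus, both lower, against 14.5% of probe sets without overlap and 7.26% lower. In the other comparisons with 6 months (oculomotor nucleus at 30 months, cord at 18 months) 0 enzymes were without overlap, against 13.9% and 13.6% of probe sets. In the cord the log2 changes of Ldha were -0.11 at 18 months and -0.16 at 30 months (SE 0.11 each). These rested on cord 6 months replicate 2: without it, the changes were 0.04 and -0.01. That array also had the highest Acta1 signal, the actin of skeletal muscle, at 3631, against 230.6 to 2008 on the other 17. Cord 6 months replicate 1 and cord 18 months replicate 2 had the next highest Acta1 signals, 2008 and 1529. Their Ldha signals were 987 and 1010. With the mean log2 signal of Acta1 and Ckm, the muscle creatine kinase, in the model, the cord change of Ldha at 30 months was -0.015 (adjusted p = 0.986). Without the 3 muscle-rich cord arrays, which left 1 cord array at 6 months, the changes were 0.06 at 18 months and 0.03 at 30 months. Beyond these fits, the part of muscle RNA in the Ldha changes was not tested.

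**Figure D4:**
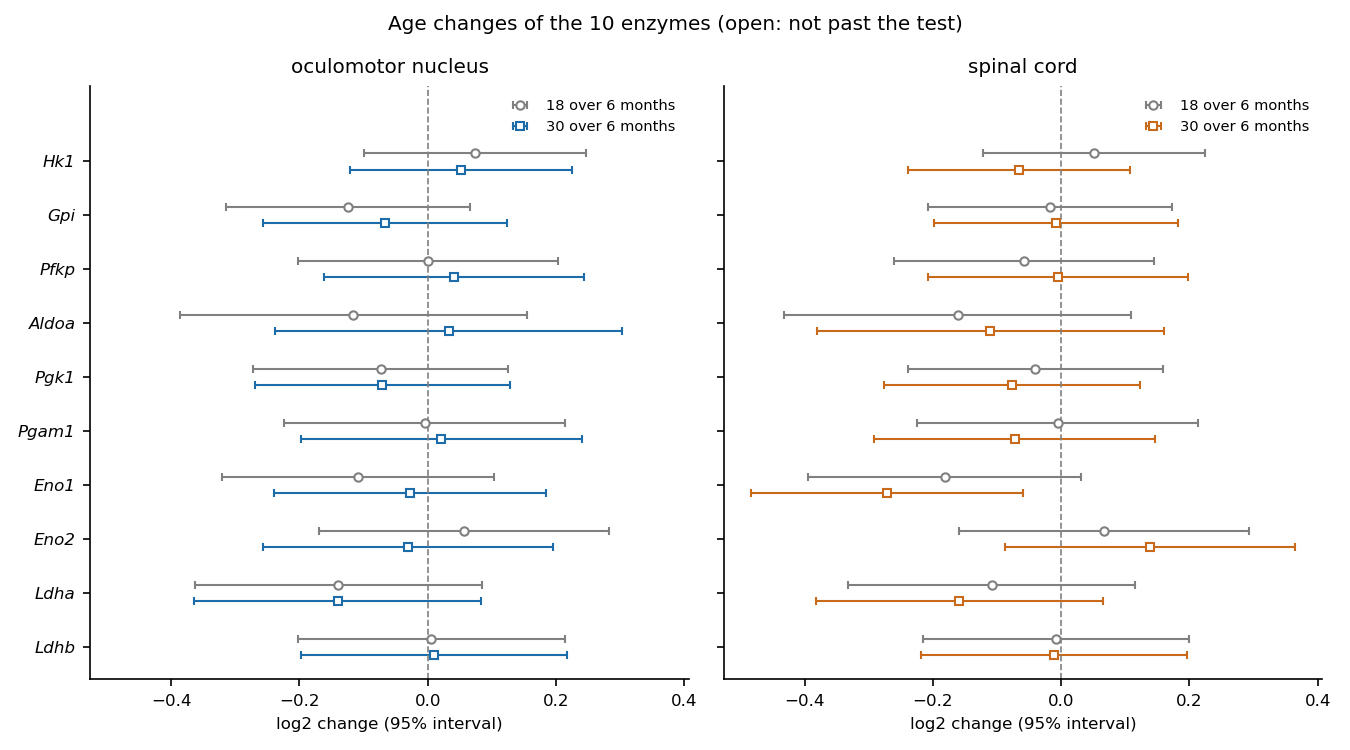
Log2 change over 6 months of each enzyme at 18 months (grey circles) and 30 months (coloured squares), oculomotor nucleus in the left panel and spinal cord in the right panel, with 95% intervals. All symbols are open, since none had an adjusted p under 0.05. Each gene is shown by its brightest probe set, and among these the interval of Eno1 in the cord at 30 months, with a change of -0.27, was the single one that left out 0 before adjustment.

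None of the remaining enzymes passed at 30 months either. Ldhb had log2 changes of 0.01 in the oculomotor nucleus and -0.01 in the cord (SE 0.10 each). In the same order of tissues the log2 changes were -0.07 and -0.01 for Gpi, 0.04 and -0.01 for Pfkp, 0.05 and -0.07 for Hk1, 0.02 and -0.07 for Pgam1, 0.03 and -0.11 for Aldoa, and -0.03 and 0.14 for Eno2. The second probe set of Pgk1 had a log2 change of -0.29 in the oculomotor nucleus at 30 months (95% interval -0.58 to -0.012, unadjusted p = 0.0418, adjusted p = 0.588), with replicate 2 at 2362 and the others at 3476 and 3392, while the brightest gave -0.07. By age, the 3' to 5' ratio of the hexokinase controls spanned 1.57 to 1.64 on the oculomotor arrays of 6 months, 1.75 to 1.89 (18 months) and 1.76 to 1.91 (30 months). In the cord it spanned 1.93 to 2.12 (6 months), 1.67 to 1.97 (18 months) and 1.66 to 2.19 (30 months). The tissues were thus separate in this ratio at 6 months, lower in the oculomotor nucleus, and overlapped at the later ages. The same ratio of GAPDH spanned 0.99 to 1.09 over the oculomotor arrays and 0.99 to 1.30 over the cord arrays. Its median was lower in the oculomotor nucleus for hexokinase (1.76 against 1.93) and GAPDH (1.02 against 1.09). For beta-actin, the other such control, the median was higher there (1.31 against 1.16). At 6 months the beta-actin ratio spanned 1.25 to 1.36 in the oculomotor nucleus and 0.98 to 1.26 in the cord. The part of these ratios in the age values of Hk1 was not tested.

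Further enzymes of glycolysis did not all follow the same direction between the tissues. Of 20 listed, 14 were matched to a named probe set and 7 were tested: 3 were higher in the oculomotor nucleus, 2 were lower and 2 did not pass, against 23.6% higher and 23.6% lower over all probe sets. Their median log2 change was 0.10, against 0.01 over all probe sets. Pfkl, the liver-type subunit of phosphofructokinase, had 930 ± 117 against 550 ± 53.9 (log2 0.75, adjusted p = 3.64e-07; SD, n = 9 each), Tpi1, triosephosphate isomerase, had a log2 change of 0.47 (adjusted p = 4.11e-06) and Pfkm, the muscle-type subunit, one of 0.39 (adjusted p = 9.64e-07). Bpgm, which makes 2,3-bisphosphoglycerate, was lower (log2 -0.19, adjusted p = 0.00725, but 0.0586 without the 4 arrays that stand apart), as was Pfkfb3 (log2 -0.28, adjusted p = 0.0106), which makes the phosphofructokinase activator fructose 2,6-bisphosphate. Aldoc did not pass (log2 -0.10, adjusted p = 0.321), but was lower without the 3 muscle-rich cord arrays (log2 -0.21, adjusted p = 0.0474).

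Genes that bring glucose in and carry pyruvate on were divided. Of 22 listed, 21 were matched and 18 tested, with 7 higher and 6 lower in the oculomotor nucleus and a median of 0.03, against 23.6% higher, 23.6% lower and a median of 0.01 over all probe sets. The glucose transporters went opposite ways: Slc2a3, the neuronal one, had 583 ± 46.5 against 368 ± 27.5 (log2 0.66, adjusted p = 1.4e-07), and Slc2a1, that of the blood-brain barrier and astrocytes, had 1469 ± 93.7 against 1957 ± 151 (log2 -0.41, adjusted p = 1.94e-06). Got1 and Mdh1, cytosolic enzymes of the malate-aspartate shuttle, had log2 changes of 0.57 and 0.41. Lower were Pdk3, a kinase that inhibits pyruvate dehydrogenase (log2 -0.49), and Gpd1, of the glycerol phosphate shuttle (log2 -0.69). All 4 had an adjusted p of 0.000245 or smaller.

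Of 16 pentose phosphate and glycogen genes listed, 14 were matched and 12 tested, with 1 higher and 4 lower and a median of -0.14. Over all probe sets 47.2% were called in either direction, so the 5 called of 12 were no larger a share than the background. Pgm1, phosphoglucomutase, was the higher one (log2 0.22, adjusted p = 0.00296). Taldo1 (log2 -0.54, adjusted p = 2.83e-05) and Tkt (log2 -0.26, adjusted p = 0.00295), enzymes of the non-oxidative pentose phosphate branch, were lower, as were the glycogen phosphorylases Pygm (log2 -0.61, adjusted p = 7.73e-07) and Pygb (log2 -0.19, adjusted p = 0.003). No gene of these lists was called in a comparison of ages.

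**Figure D5:**
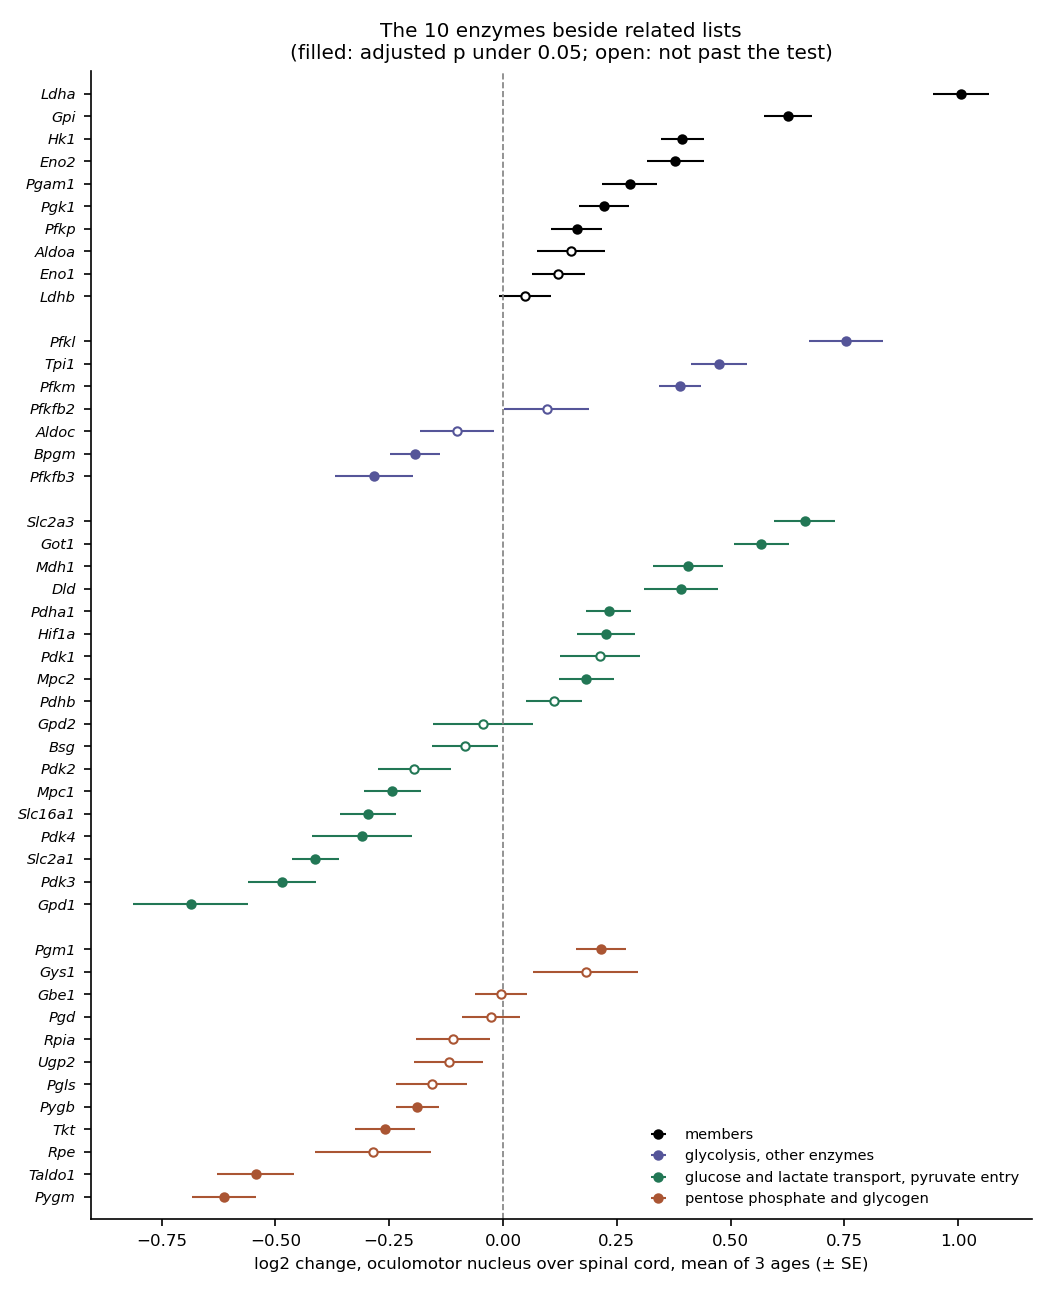
Log2 change, oculomotor nucleus over spinal cord averaged over 3 ages (horizontal axis, ± SE), of the 10 enzymes in black, 7 other glycolytic genes in violet, 18 transport and pyruvate genes in green and 12 pentose phosphate and glycogen genes in brown. Filled symbols had an adjusted p under 0.05. All 10 enzymes lay right of 0, from 0.05 (Ldhb) to 1.01 (Ldha), and the other lists lay on both sides.

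Muscle isoenzymes of the same steps marked some cord arrays. Eno3, the muscle enolase, had cord signals of 120, 273 and 33.2 (6 months), 7.3, 108 and 54.5 (18 months), then 89.8, 52.7 and 51.0 (30 months). Pgam2, the muscle mutase, read 82.2, 93.1 and 6.6 in the cord at 6 months and 4.0 to 6.5 at the later ages. Both were under the filter, and in the oculomotor nucleus they read 19.2 to 64.6 and 3.4 to 5.3. Averaged over ages, 7 of the 10 enzymes were called higher without the 3 muscle-rich cord arrays, where 3990 of 9492 probe sets were called in either direction, and 7 when a muscle score (mean log2 signal of Acta1 and Ckm, the muscle creatine kinase) entered the model, where 3663 of 9482 were called. At 6 months, where leaving out these arrays left 1 cord array whose spread was taken from the other groups, single enzymes moved both ways. Hk1 lost its call without these arrays (log2 0.23, adjusted p = 0.176) and with the muscle score in the model (log2 0.28, adjusted p = 0.0659), against a log2 change of 0.35 with all arrays. Pfkp gained one without these arrays (log2 0.36, adjusted p = 0.0375), against 0.13 with all arrays (adjusted p = 0.374), and had 0.25 with the score (adjusted p = 0.14). At 30 over 6 months in the cord, Pfkp had a log2 change of 0.23 without these arrays (adjusted p = 0.39) and Hk1 one of -0.18 (adjusted p = 0.51).

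The mean log2 deviation of the 10 enzymes from their group means was 0.09, 0.02, 0.06 and 0.08 on the 4 arrays that stand apart, and -0.07 on oculomotor 30 months replicate 2 at the other end. Oculomotor 6 months replicate 1, near 0 on the component, had 0.07. Single enzymes lay below on the 4 arrays too, such as Ldha (-0.11) and Eno2 (-0.13) on cord 6 months replicate 1. Without the 4 arrays, 8 enzymes were called higher averaged over ages, 6 at 6 months, 6 at 18 months and 4 at 30 months, where 4468, 2857, 2666 and 1629 of 9486 probe sets were called in either direction, and 0 enzymes were called in each age comparison. Without oculomotor 30 months replicate 2 alone, 8, 4, 4 and 6 enzymes were called in these comparisons between the tissues, where 4485, 2624, 2633 and 1657 of 9495 probe sets were called, and 0 in each age comparison.

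Among 6948 named genes, those whose 6 centred group means lay nearest to those of Ldha (root mean square distance on the log2 scale) were Slc2a13, a myo-inositol transporter, and Cnih2, an AMPA receptor auxiliary protein, both at 0.031, then Syt4, a synaptotagmin, at 0.043 and Pnck, a calmodulin-dependent kinase, at 0.055. Slc2a13 averaged 1205 ± 107 in the oculomotor nucleus and 594 ± 117 in the cord (SD, n = 9 each). No enzyme had a negative difference between the tissues, so no such list was made for that direction.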

How the data were processed

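RNA of 18 rat samples was hybridised to Affymetrix RA230 arrays. Per the series' design text in the labels, each sample combined 4 animals, and signals were made by the authors with Microarray Suite 5.0. The text speaks of 4 replicates per group where the labels give 3, which were followed. The deposited intensities are linear MAS5 signals, 1 per probe set and array. Their 2% trimmed mean lay between 500.083 and 500.101, their median between 252 and 275, and no detection calls were used here. The number of arrays, not counting depth, limits the precision.

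Signals were brought to a common trimmed mean, raised to a floor at the pooled 20th percentile (66.4) and log2-transformed. Between 18.0% and 21.0% of an array's probe sets lay at or under the floor. After removal of 57 controls, probe sets with a mean log2 signal over the pooled 40th percentile (7.459) were kept. Names came from the platform table, updated through the rat gene table: 12789 probe sets named 1 gene, and 312 that named several were not named, which leaves out Pkm and Gapdh. A gene is represented by its brightest probe set.

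limma 3.58.1 in R 4.3.3 fitted a mean for each of 6 groups to all 18 arrays, with a mean-variance trend and 12 residual degrees of freedom, and 10 contrasts were tested, 2-sided, with Benjamini-Hochberg adjustment over 9482 probe sets. The code was tested on simulated data. The enzymes and gene lists were chosen with earlier results of these data known. All 10 enzymes are named, with up to 6 called genes and 2 others per metabolic list by smallest p, muscle markers, and the 4 genes nearest to Ldha. Alternatives were quantile, median-centred and deposited scaling, no floor, a pseudocount of 32, other filters, a replicate block, array weights, no trend, a muscle covariate, averaged probe sets, the study's pairwise rule, omitted arrays and, added after seeing the data, controls kept in the fit. Replicates of a group correlated at 0.955 to 0.985, and none had identical values. Promoter windows were taken from RefSeq.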

Additional observations from a re-analysis of the deposited data

How the results depend on the processing

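In the comparison of tissues averaged over the ages, 7 enzymes were called, with 6 to 8 when 1 array was left out and 7 to 8 under the other alternatives. At 6 months and at 18 months 4 were called whichever array was left out, and at 30 months 3 to 6. Array weights raised the count at 18 months to 7, while the count over all probe sets went to 3616, against 2481 without weights. By the study's pairwise rule, which asks every pair of arrays to change in the same direction with a mean ratio over 1.7, 1 enzyme was left at 6, 18 and 30 months each, with 697, 768 and 594 of 9482 probe sets, against 2478, 2481 and 1988 called by limma. For the 10 enzymes averaged over ages, 323 of 330 values kept their side of the threshold, 2 lost the call (Pfkp), 5 gained one (Aldoa once, Eno1 4 times) and 0 changed direction. Pgam1 at 30 months lost its call without oculomotor replicate 3 (adjusted p = 0.11), cord replicate 1 (0.0915) or cord replicate 2 (0.0873). In the age comparisons 0 of 2020 values passed. The background count was less steady: 69 probe sets at 18 over 6 months in the cord ran from 5 to 124, 20 at 30 over 6 months in the oculomotor nucleus from 4 to 69, and 21 at 30 over 6 months in the cord from 0 to 43. The log2 difference of the Ldhb to Ldha ratio stayed between -0.98 and -0.93. With 3 arrays per group, the intervals above bound what an age change could be.

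Replicate numbers are shared between groups in the labels, which do not say that they mark shared animals. Same-numbered arrays deviated with correlations of -0.22 to 0.17 (replicate 1), -0.10 to 0.26 (replicate 2) and -0.26 to 0.50 (replicate 3), and so were not taken as pairs. Replicate 3 is also the number of the arrays that stand apart in the oculomotor nucleus at 30 months and in the cord at 18 and 30 months. With the replicate number as a block, 7 enzymes were called averaged over ages, 4 at 6 months, 4 at 18 months and 5 at 30 months, and 0 in the age comparisons, while the background count at 30 over 6 months in the oculomotor nucleus was 9 in place of 20. No other count of calls moved by over 1.5 times under the block.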
